A study of Gallus gallus with 8 samples.

Results

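NPPA, CHGB, PENK and ADM encode precursors of secreted peptides or granule proteins, and they were followed here across 8 chick embryo libraries. The members were the rows of the deposited tables that carry these names, with NPPA under its entry name ANF. All 4 were found among 17778 listed genes. They had been chosen by their CPM in these same libraries, as granule and peptide genes with strong differences between regions, so their regional levels are a description and were given no test. The listed coordinates, in a genome build not given in the sources used here, place NPPA on chromosome 21 from 5763068 to 5766207 (plus strand), CHGB on chromosome 3 from 17998084 to 18009765 (plus strand), PENK on chromosome 2 from 115072224 to 115076023 (minus strand) and ADM on chromosome 5 from 9939496 to 9941402 (minus strand). These intervals run from the start to the end of each gene, and exons were not listed.

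Each of the 8 groups was 1 library of pooled chick (Gallus gallus) tissue, and no genotype or treatment was named. The heart gave the developing sinoatrial node (the pacemaker region), the left atrium, the apex of the common ventricle and the atrioventricular junction. Lateral plate mesoderm of Hamburger-Hamilton (HH) stage 8, the sheet from which the heart tube arises, gave the pacemaker progenitor field and an anterior, a left and a posterior pool. The junction was of HH stage 17 to 18, while for node, atrium and ventricle the stage is not given in the sources used here, so region and stage cannot be told apart among the heart libraries. The atrium was of the left side, so region and side cannot be told apart either. How many embryos went into a pool was not stated. Gene counts per library came to between 10258697 and 17189803, and 1 read was worth 0.0541 to 0.109 CPM (the reads of a gene relative to all gene reads of its library). TNNT2, the cardiac troponin T of the sarcomere, stood at 6218 to 7583 CPM in the heart libraries and at 297 to 694 CPM in the mesoderm.

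All levels below are CPM after scaling between libraries with TMM factors, and brackets give exact 95% intervals that cover counting error only. A pair of libraries was called different for a gene when the ratio of CPM + 1 reached 2-fold, at least 5 CPM were reached in the higher of the 2 libraries, and the counting interval of the ratio excluded 1. No group has a second library, so the values stand without replicates and without p-values. In bulk tissue, fewer cells of a type and less RNA per cell cannot be told apart.

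Peptide hormones are made as larger precursors that enter the secretory pathway, are cut by proteases and are released from the cell, often from dense-core granules. Atrial natriuretic peptide, made from NPPA, is released by heart muscle and acts on blood volume and vessel tone, and in the mouse embryo its gene marks the working muscle of the chambers and is low in the atrioventricular canal. CHGB encodes chromogranin B, an acidic protein packed into dense-core granules. PENK encodes proenkephalin, the source of Met-enkephalin and Leu-enkephalin, and ADM encodes the vasodilator peptide adrenomedullin.

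**Figure D1:**
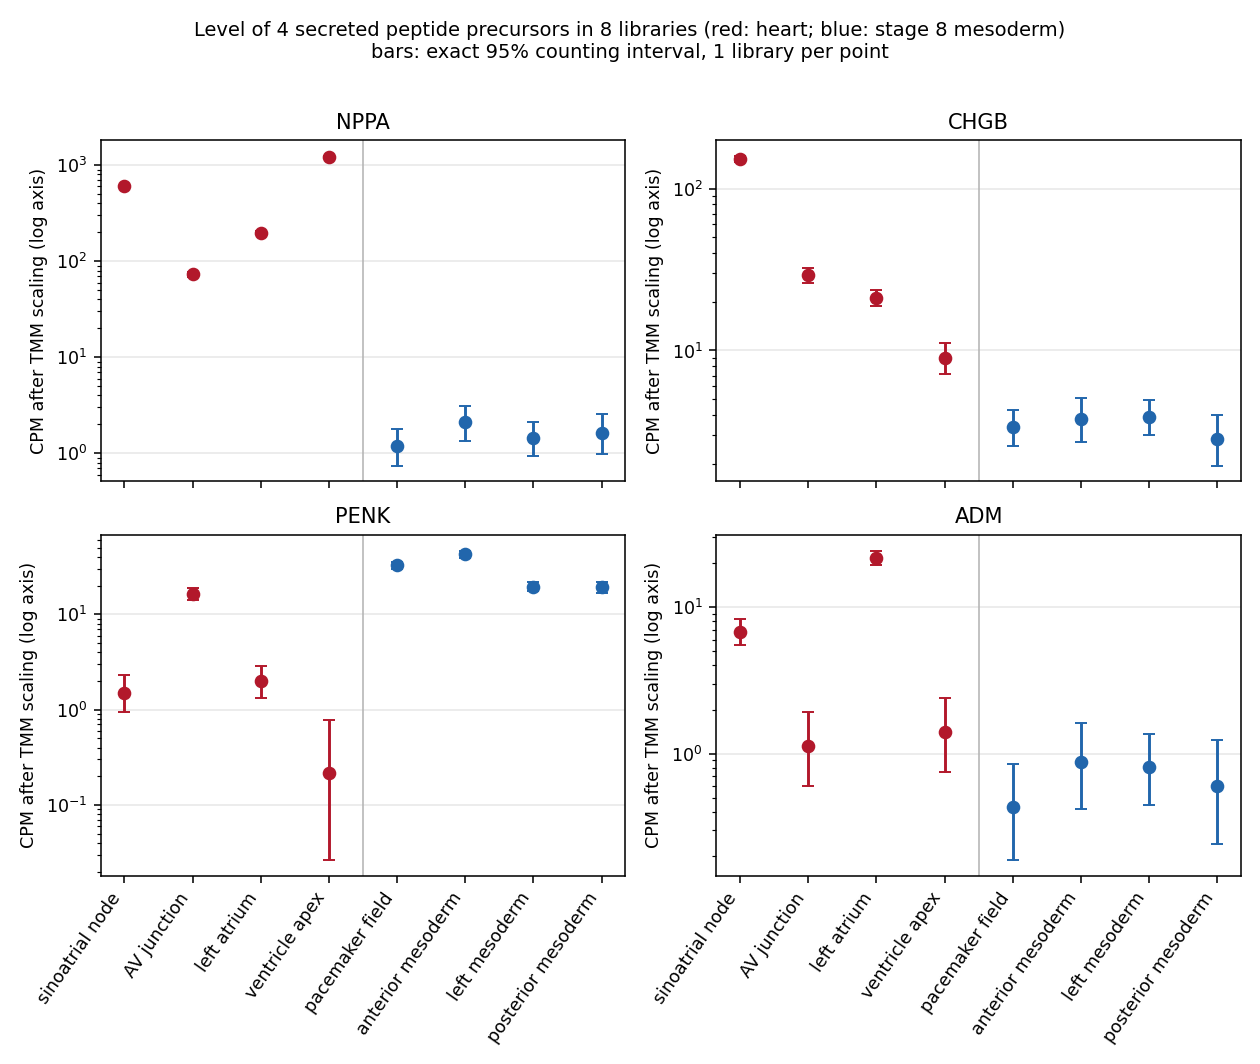
Level of NPPA, CHGB, PENK and ADM in each library, as CPM after TMM scaling on a log axis, with exact 95% counting intervals and 1 library per point (red for heart, blue for HH stage 8 mesoderm). NPPA peaked in the ventricle at 1224 CPM, CHGB in the node at 152 CPM, ADM in the atrium at 21.8 CPM and PENK in the anterior mesoderm at 42.7 CPM.

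Each precursor had its heart maximum in a different region. NPPA was highest in the ventricle apex, CHGB in the sinoatrial node, PENK in the atrioventricular junction and ADM in the left atrium. The span over the heart was the log2 ratio of CPM + 1 in the highest to the lowest of the 4 heart libraries. It was 4.05 for NPPA, 3.94 for CHGB, 3.82 for PENK and 3.42 for ADM. The median was 0.56 over the 9916 genes at 5 CPM or more in the heart. By this span the members ranked 42, 48, 63 and 96 among those genes. The added 1 CPM narrows the span most where the lowest library is low, as for PENK and ADM, so their order and ranks depend on it. Over the 6 pairs of heart libraries, 19 of the 24 member ratios were called.

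All 4 members were called between node and junction, where 7.20% of expressed genes were. In every other heart pair 3 of the 4 were called, beside 7.53% of genes between node and atrium, 11.7% between node and ventricle, 6.82% between junction and atrium, 11.2% between junction and ventricle and 7.39% between atrium and ventricle. The choice of members used these contrasts, so nothing is read from the excess over the background. NPPA was the member called in all 6 pairs.

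**Figure D2:**
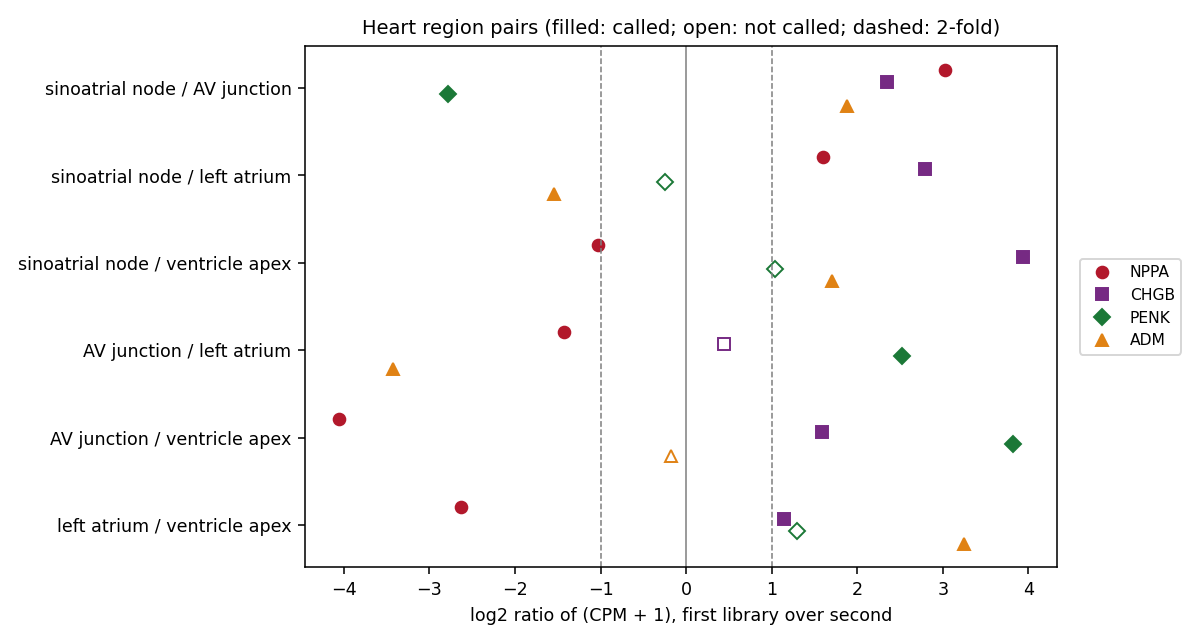
Log2 ratio of CPM + 1 of each member in the 6 pairs of heart libraries, the first named over the second, with filled symbols for called ratios and dashed lines at 2-fold. The open PENK symbols beyond a dashed line belong to pairs in which neither library reached 5 CPM, and the NPPA ratio between node and ventricle lies at the line.

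NPPA stood at 1224 CPM (1202 to 1247) in the ventricle apex, 599 CPM (587 to 612) in the node, 197 CPM (190.3 to 205) in the left atrium and 72.8 CPM (67.9 to 77.9) in the junction. The ventricle thus held the highest level of this gene and the junction the lowest, and no counting intervals overlapped. The gene is named for the atrium, but its RefSeq entry also carries the older symbol NPPB. The ventricle was 16.8-fold (15.7 to 18.1) above the junction and 6.20-fold (5.95 to 6.46) above the atrium. It was called above each of the other heart libraries, as were 1.13% of genes, and the junction was called below each of them, as were 0.514%. The node was 3.04-fold (2.91 to 3.17) above the atrium and 8.24-fold (7.67 to 8.85) above the junction. Between ventricle and node the ratio was 2.04-fold (1.98 to 2.10). That call was lost when libraries were scaled by total counts, where the log2 ratio of node to ventricle was -0.89.

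At HH stage 8 NPPA was detected at a low level, at 2.10 CPM (24 counts) in the anterior mesoderm, 1.63 CPM (19 counts) in the posterior, 1.45 CPM (25 counts) in the left and 1.19 CPM (22 counts) in the pacemaker field. No pair among these 4 libraries differed beyond counting error. Every heart library was called above every mesoderm library, a pattern that 5.62% of genes at 5 CPM or more in any library showed. The smallest of these gaps, junction over anterior mesoderm, was 34.7-fold (23.2 to 54.5). Folds of the ventricle over the mesoderm libraries ran from 584 to 1029.

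Summed over 10 heart muscle genes measured of 16 listed, the 4 heart libraries held 26588 CPM in the node, 28286 in the junction, 32274 in the left atrium and 30148 in the ventricle. This spread is narrower than that of NPPA, and the junction, lowest in NPPA, was not lowest in the sum. Within the list 3 of 10 were called in a heart pair, beside 21.3% of all expressed genes, with a median span of 0.66. This list and the other gene lists below were chosen with earlier results of these data known, so nothing is read from an excess over that share. PLN, which encodes phospholamban, a brake on the calcium pump of heart muscle, was at 247 CPM in the ventricle, 165 in the junction, 13.3 in the atrium and 6.61 in the node, and so unlike NPPA it was high in the junction. RYR2, the calcium release channel, was highest in the node at 229 CPM. CASQ2, the other called gene, was lowest in the junction as NPPA was, at 49.6 CPM against 109 in the node, 102 in the ventricle and 86.9 in the atrium. ACTC1 and TPM1, not called, were also lowest in the junction. TNNT2, TNNC1, TNNI1 and ACTN2 were lowest in the node, as PLN was, and RYR2 and MYL2 in the ventricle. The 11 endothelial genes measured of 16 listed, markers of the vessel and inner heart lining, summed to 165 CPM in the junction, 315 for the node, 344 in the left atrium and 367 in the ventricle, so their lowest sum also fell in the junction. Of the 11, 10 were called in a heart pair, beside 21.3% of all expressed genes. SOX7, a transcription factor of that lining, was at 29.6 CPM in the ventricle and 4.52 in the junction. Not all were lowest in the junction. VWF was highest in the node at 11.6 CPM and lowest in the atrium at 1.10, and NFATC1 was lowest in the node at 10.1 CPM. ESAM was equally low in ventricle and junction, at 85.3 and 85.5 CPM. The part of other cell types in the NPPA levels was not tested.

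The genes that process and receive natriuretic peptides were partly regional. Of 4 heart-expressed genes of this system other than NPPA, 2 were called in a heart pair, CORIN and NPR3, beside 21.3% of all expressed genes. CORIN, the membrane protease that cuts the NPPA precursor, was at 42.2 CPM in the ventricle, 32.5 in the node, 20.2 for the atrium and 10.6 in the junction. It kept the order of NPPA in the heart libraries and was 3.98-fold (3.24 to 4.92) higher in ventricle than in junction. In the mesoderm CORIN had 0 CPM in the left and posterior pools and 0.262 and 0.270 CPM in the anterior pool and the pacemaker field. NPR3, the receptor that clears natriuretic peptides, had its maximum elsewhere, at 30.5 CPM in the atrium against 18.4 in the node, 12.8 in the junction and 9.55 in the ventricle. NPR1, the signalling receptor, did not pass 0.262 CPM in any library, which is 3 counts. PRKG1 and PDE5A, which act downstream on cyclic GMP, were not called, with spans of 0.64 and 0.45. NPPB, NPPC and NPR2 were not found by name and are not analysed here. The RefSeq entry for chick NPPA also lists NPPB among its older symbols, so which of these peptides the row encodes is not settled here.

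Most of the listed transcription factors of the heart, several known to act on this gene, also differed between heart regions. In the mouse NKX2-5, TBX5 and GATA4 activate Nppa, and TBX2 and TBX3 repress it in the atrioventricular canal. TBX2 was at 39.1 CPM in the junction, 18.1 in the atrium, 7.26 in the node and 1.63 in the ventricle. This is the reverse of the NPPA order over the 4 heart libraries. TBX3 was at 95.1 CPM in the junction, 82.8 for the node, 29.8 in the left atrium and 7.16 in the ventricle, so the node held much TBX3 beside high NPPA. NKX2-5 was at 1123 CPM in the atrium, 926 in the junction, 594 in the ventricle and 120.2 in the node. TBX5 was highest in the atrium at 777 CPM and lowest in the ventricle at 308 CPM, and GATA4 ran from 157 CPM in the node to 77.5 in the ventricle. NR2F2, a nuclear receptor of atrial muscle, stood at 382 CPM in the node and 20.5 in the ventricle. Of the 17 such factors measured of 18 listed, 14 were called in at least 1 heart pair, beside 21.3% of all expressed genes. The median span of the 17 was 2.05. These are levels side by side, and with 4 heart libraries no relation between factor and target was tested.

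CHGB stood at 152 CPM (146 to 159) in the node, 29.2 CPM (26.1 to 32.5) in the junction, 21.1 CPM (18.8 to 23.6) in the atrium and 9.01 CPM (7.17 to 11.2) in the ventricle. The node stood alone, and the ventricle was lowest of the heart. The node was 16.9-fold (13.6 to 21.3) above the ventricle, 7.21-fold (6.39 to 8.15) above the atrium and 5.22-fold (4.65 to 5.87) above the junction. It was called above each of the other heart libraries, as were 1.55% of genes, and the ventricle was called below each of them, as were 1.42%. Junction and atrium differed by 1.38-fold (1.18 to 1.62), beyond counting error but short of a call.

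In the mesoderm CHGB was low and even, at 3.88 CPM in the left pool, 3.76 in the anterior, 3.35 in the pacemaker field and 2.83 in the posterior. No pair among them differed beyond counting error. Every heart library was called above every mesoderm library for CHGB too, with the ventricle 2.32-fold (1.66 to 3.25) above the left mesoderm as the smallest gap. Of these 16 calls 13 were left with total counts and 12 with a pseudocount of 5 CPM. From the pacemaker field to the node the difference was 45.4-fold (35.3 to 59.5).

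Other granule genes did not all follow CHGB. Of 5 heart-expressed granule genes besides CHGB, 3 were called in a heart pair, beside 21.3% of all expressed genes. The median span of the 5 was 1.92. PTPRN2, a membrane protein of dense-core granules, had the same highest and lowest regions as CHGB, at 8.05 CPM in the node, 2.26 in the junction, 1.92 in the left atrium and 1.09 in the ventricle. SCG2, another granin, was highest in the junction at 5.65 CPM, with 2.44 in the node, 0.823 in the left atrium and 0.760 in the ventricle. SCG3, which helps sort granins into granules, was even across the heart at 4.77 to 8.25 CPM. CHGA, the sister granin, was at 0.343 to 0.782 CPM in the heart, or 5 to 9 counts, and so was barely detected where CHGB was highest. A short row matched to PTPRN by gene identifier read 437 to 882 CPM over the 8 libraries, and its identity is uncertain. SCG5, VGF and NUCB2 were not found by name.

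Markers of nerve and neural crest cells, a cell class rich in chromogranins, did not sum highest in the node. Of 20 listed, 6 were measured and 3 were expressed in the heart, and they summed to 91.7 CPM in the node, 111 in the junction, 66.7 in the left atrium and 125 in the ventricle. NEFL and NEFM, neurofilament genes, made up most of the sum in the node, with 56.5 and 25.1 CPM. NEFL was itself highest in the node within the heart, as CHGB was, and 3.76-fold (3.18 to 4.46) above the junction, while NEFM was highest in the ventricle. SOX10, a defining neural crest factor, had 3 counts in the node, 4 in the junction and 0 in atrium and ventricle. STMN2, a neuronal growth protein, was at 0.760 to 1.51 CPM, the latter in the node. Endoderm and liver markers, with 7 of 10 measured, did sum highest in the node, at 1525 CPM against 448 in the junction, 650.2 in the left atrium and 122 in the ventricle. FGA, a fibrinogen chain, was at 6.68 CPM in the node and at 0 counts in the other heart libraries. APOA1, an apolipoprotein, made up most of that sum, with 1489 CPM in the node. FGB and TTR were also highest in the node within the heart. HHEX, called between ventricle and junction, was instead highest in the ventricle, at 21.7 CPM against 13.3 in the node. ALB and SOX2 peaked in the junction and the atrium, at 9 and 3 counts. The part of other cell types in the CHGB level was not tested.

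PENK stood at 16.2 CPM (14.0 to 18.7) in the junction, 1.99 CPM (1.33 to 2.86) in the atrium, 1.51 CPM (0.934 to 2.31) in the node and 0.217 CPM (0.0263 to 0.784) in the ventricle, the last from 2 counts. Within the heart the junction was highest and the ventricle lowest, with atrium and node at low levels between. It was 8.16-fold (5.50 to 12.5) above the atrium, 10.8-fold (6.84 to 17.8) above the node and 74.9-fold (20.4 to 623) above the ventricle. The junction was called above each of the other heart libraries, as were 0.827% of genes. Atrium and node differed by 1.32-fold (0.727 to 2.43), within counting error. The ratios of node and atrium to the ventricle excluded 1, at 6.95-fold (1.70 to 61.2) and 9.17-fold (2.32 to 79.3). They were not called because no library of those pairs reached 5 CPM, and with a minimum of 1 CPM both were.

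PENK was the member that was higher in the mesoderm. Its levels were 42.7 CPM (39.0 to 46.7) in the anterior pool, 32.6 CPM (30.1 to 35.3) in the pacemaker field, 19.4 CPM (17.4 to 21.6) in the left pool and 19.4 CPM (16.9 to 22.1) in the posterior. The anterior pool was highest, the pacemaker field next, and the left and posterior pools did not differ beyond counting error (interval of the ratio 0.845 to 1.19). Anterior mesoderm was called 2.20-fold (1.91 to 2.53) above left and 2.20-fold (1.88 to 2.59) above posterior, where 1.38% and 1.94% of expressed genes were called. With total counts 1 of these 2 calls was left, and both ratios lie close to the 2-fold line. The pacemaker field was 1.68-fold (1.47 to 1.92) above left, 1.68-fold (1.44 to 1.97) above posterior and 1.31-fold (1.16 to 1.48) below anterior, none of them called. No other member could be called in a mesoderm pair, since NPPA, CHGB and ADM peaked there at 2.10, 3.88 and 0.874 CPM, below the 5 CPM minimum. With no minimum they were not called either. Background shares cover only genes at 5 CPM or more in a pool of the pair. In the other mesoderm pairs they were 0.656% for pacemaker field against anterior, 0.542% against left, 1.01% against posterior and 1.88% for left against posterior. Over all 6 mesoderm pairs 3.85% of genes were called at least once.

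The junction alone of the heart regions held PENK near the level of any stage 8 pool. The junction and these pools differ in both tissue and stage, which cannot be told apart. Against the posterior and left pools the junction was lower by 1.19-fold (0.979 to 1.46) and 1.20-fold (0.998 to 1.44), within counting error. Against the pacemaker field it was 2.01-fold (1.70 to 2.38) lower and against the anterior pool 2.63-fold (2.22 to 3.13) lower, and of these 4 ratios the last was called. Node, atrium and ventricle were each called below every mesoderm library for PENK, as were 5.18%, 6.01% and 7.18% of genes. The node was 12.9-fold to 28.3-fold below the mesoderm pools, the atrium 9.74-fold to 21.5-fold and the ventricle 89.3-fold to 197-fold. For comparison, 2.53% of genes were called lower in all 4 heart libraries than in every mesoderm pool, and PENK was not among them.

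The rest of the opioid list held 2 heart-expressed genes, PNOC and OGFR, and neither was called in a heart pair. PNOC, the precursor of nociceptin, stood at 62.9 CPM in the node, 50.3 in the junction, 41.4 in the left atrium and 37.4 in the ventricle. In the mesoderm PNOC was at 0 to 0.0858 CPM, so it differed between heart and mesoderm in the direction opposite to PENK. Receptor genes were low. OPRM1, the mu receptor, was at 2.49 to 3.15 CPM in the mesoderm, where PENK was highest, and at 0.109 to 1.36 CPM in the heart. OPRD1, the delta receptor to which enkephalins bind most strongly, was at 0.429 to 1.05 CPM in the mesoderm and at 1 to 4 counts in each heart library. OPRL1, the nociceptin receptor, reached 1.03 CPM in the posterior pool. OPRK1 and PDYN were not found by name. OGFR, a receptor for Met-enkephalin unrelated to the classical ones, was at 8.12 to 14.9 CPM in all libraries.

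Markers of cushion mesenchyme, the connective tissue of the later valves, summed highest in the junction, where PENK was highest in the heart. Of 14 listed, 11 were measured, and they summed to 979.7 CPM in the junction, 506 for the node, 494 in the left atrium and 352 in the ventricle. MSX2, a homeobox gene of that tissue, was at 83.8 CPM in the junction, 10.9 in the atrium, 2.60 in the ventricle and 1.80 in the node. SOX9, a factor of cartilage and cushion cells, was at 65.1 CPM in the junction and 2.06 to 15.6 in the other heart libraries. BMP2, a growth factor of the canal, and COL2A1, a collagen, were instead highest in the node, BMP2 at 62.4 CPM against 55.6 in the junction and COL2A1 at 221 against 153. In all 10 of the 11 were called in a heart pair, beside 21.3% of all expressed genes. Epicardial markers, with 5 of 9 measured, summed to 696 CPM (junction), 691 (node), 279.6 (left atrium) and 206 (ventricle). Their sum was thus as high in the node, where PENK was low. ALDH1A2 made up most of it, with 517 CPM in the node against 470 for the junction. By gene, SEMA3D peaked in the junction as PENK did, 2.94-fold (2.60 to 3.33) above the node (77.6 against 26.4 CPM). ALDH1A2, TCF21 and BNC1 were not called between node and junction. GAP43, a growth protein of nerve endings on the neural list, was also highest in the junction within the heart, at 43.9 CPM, with 17.2 in the atrium as the next highest. The part of these cells in the PENK level was not tested.

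ADM stood at 21.8 CPM (19.5 to 24.4) in the left atrium, 6.82 CPM (5.52 to 8.34) in the node, 1.41 CPM (0.751 to 2.41) in the ventricle and 1.13 CPM (0.601 to 1.93) in the junction. Atrium and node were each apart from the rest, and ventricle and junction, with 13 counts each, overlapped. The atrium was 3.20-fold (2.54 to 4.06) above the node, 15.5-fold (8.92 to 29.4) above the ventricle and 19.3-fold (11.1 to 36.7) above the junction. It was called above each of the other heart libraries, as were 0.424% of genes. The node was 4.84-fold (2.70 to 9.42) above the ventricle and 6.04-fold (3.37 to 11.8) above the junction. Those 2 node calls were lost with a pseudocount of 5 CPM in the ratio, at log2 0.88 and 0.95.

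In the mesoderm ADM had 7 to 14 counts per library, or 0.433 to 0.874 CPM, and no pair differed beyond counting error. The atrium was 25.0-fold (13.4 to 52.6) above the anterior pool, the nearest of the mesoderm libraries. Junction and ventricle could not be called above any mesoderm library for ADM, since no library of those pairs reached 5 CPM. With no minimum they were not called either. The largest of those ratios, ventricle over pacemaker field, was 3.26-fold (1.25 to 9.07). Junction over pacemaker field was 2.61-fold (1.003 to 7.26), and both intervals excluded 1.

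Counting members against the whole mesoderm, 3 of 4 were called higher than every mesoderm pool in the node (11.7% of genes) and in the atrium (11.0%). In the junction (10.8%) and the ventricle (11.8%) 2 of 4 were, NPPA and CHGB, while ADM was below the 5 CPM minimum in those comparisons. Between the node and its stage 8 progenitor field all 4 were called, as were 23.9% of genes. Over that step NPPA was 504-fold (333 to 804) higher in the node, ADM 15.8-fold (7.69 to 37.6) higher and PENK 21.6-fold (14.0 to 35.2) lower.

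The receptor of adrenomedullin could be followed only in part. It is CALCRL paired with the accessory proteins RAMP2 or RAMP3, none of which was found by name, and ACKR3 was not matched either. The related CALCA and CALCR did not exceed 0.595 CPM in any library. ADM is known in mammals to respond to low oxygen through HIF1A, and 15 other genes of that response were measured of 25 listed. They summed to 4412 CPM in the atrium, 4221 in the junction, 3478 in the ventricle and 2625 in the node, so the sum was highest where ADM was highest and lowest where ADM was next highest. ENO1, a glycolytic enzyme at 1803 to 3087 CPM in the heart, made up most of that sum and was itself highest in the atrium. By gene, 3 of the 15 had their heart maximum in the atrium, ENO1, CA9 and VHL. Of the 15, 5 were called in a heart pair, beside 21.3% of all expressed genes, with a median span of 0.70. The part of this response in the ADM level was not tested. NDRG1 was highest in the ventricle at 26.1 CPM against 3.02 to 4.95 in the other heart libraries, and LDHA, lactate dehydrogenase, was highest in the junction at 341 CPM. CA9, a carbonic anhydrase, was highest in the atrium at 231 CPM and lowest in the node at 49.8 CPM, where ADM was next highest. EGLN3, an oxygen-sensing hydroxylase, had its maximum in the junction at 7.21 CPM, where ADM was lowest.

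Blood markers were also highest in the atrium library. The 6 erythroid genes measured of 12 listed summed to 47020 CPM in the atrium, 25015 in the node, 22299 in the ventricle and 17627 in the junction. This puts the libraries in the same order as ADM, over a narrower range. For ADM itself, ventricle and junction did not differ beyond counting error, so only the places of atrium and node are resolved. HBBA, a beta globin, was called in 3 heart pairs, but globin genes are close copies of each other and their reads may be shared out wrongly. The endothelial sum, given above, was as high in the ventricle as in the atrium, while ADM was 15.5-fold apart between them. The part of blood or endothelial cells in the ADM level was not tested.

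**Figure D3:**
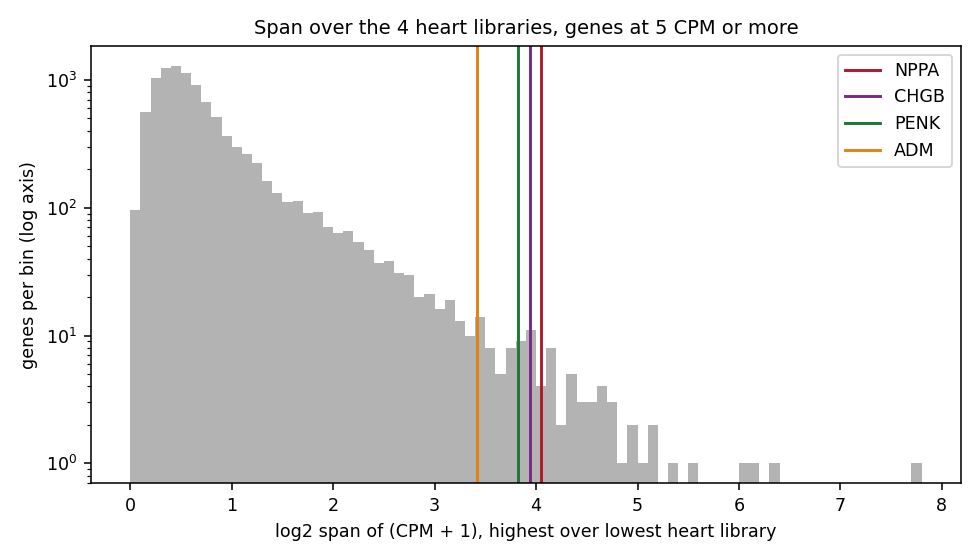
Number of genes (log axis) by span over the 4 heart libraries, the log2 ratio of CPM + 1 in the highest to the lowest, for the 9916 genes at 5 CPM or more. The members lie at 3.42 to 4.05, where the median gene lies at 0.56, and they were chosen for this spread.

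RNA of several enzymes that trim or modify peptide precursors was found in every heart region, but not of all those listed. ENPEP had 0 counts in the ventricle and 8 in the atrium, and ECE2 was at 0.790 to 1.30 CPM in the heart. Of 7 measured processing genes expressed in the heart, 3 were called in a heart pair, beside 21.3% of all expressed genes. The median span of the 7 was 0.91. CPE, which trims basic residues from cut prohormones and sorts granule cargo, was the most regional, at 102 CPM in the junction against 32.0 in the atrium, 29.3 in the node and 23.3 in the ventricle. The junction was 3.18-fold (2.85 to 3.55) above the atrium, and so CPE, which also stands on the granule list, had its heart maximum where PENK and SCG2 had theirs. Mesoderm held 3.59 to 5.90 CPM of CPE. PAM, which adds the terminal amide that adrenomedullin needs, was at 13.9 to 20.1 CPM in the heart and was not called. CPD, a carboxypeptidase of the Golgi, was likewise even at 48.2 to 56.4 CPM. CPZ, a secreted carboxypeptidase, was highest in the ventricle at 34.2 CPM, and QPCT, which forms N-terminal pyroglutamate, was 2.09-fold (1.75 to 2.51) higher in node than atrium. The proprotein convertases PCSK1, PCSK2, PCSK5 and FURIN were not found by name, so the enzymes that make the first cuts were not followed here.

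Of 7 measured genes of vesicle release expressed in the heart, 3 were called in a heart pair, beside 21.3% of all expressed genes, and their median span was 0.66 against 0.56 overall. CADPS, which primes dense-core vesicles for release, stood at 8.76 CPM in the node, 7.82 in the junction and 5.90 in the atrium against 0.868 in the ventricle, 10.1-fold (4.97 to 23.9) from node to ventricle. UNC13B, another priming factor, was 3.24-fold (1.99 to 5.50) higher in junction than ventricle. The row named CPLX2 went the other way, 2.49-fold (1.75 to 3.57) higher in ventricle than atrium, but none of its neighbours on the chromosome matched the reference.

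**Figure D4:**
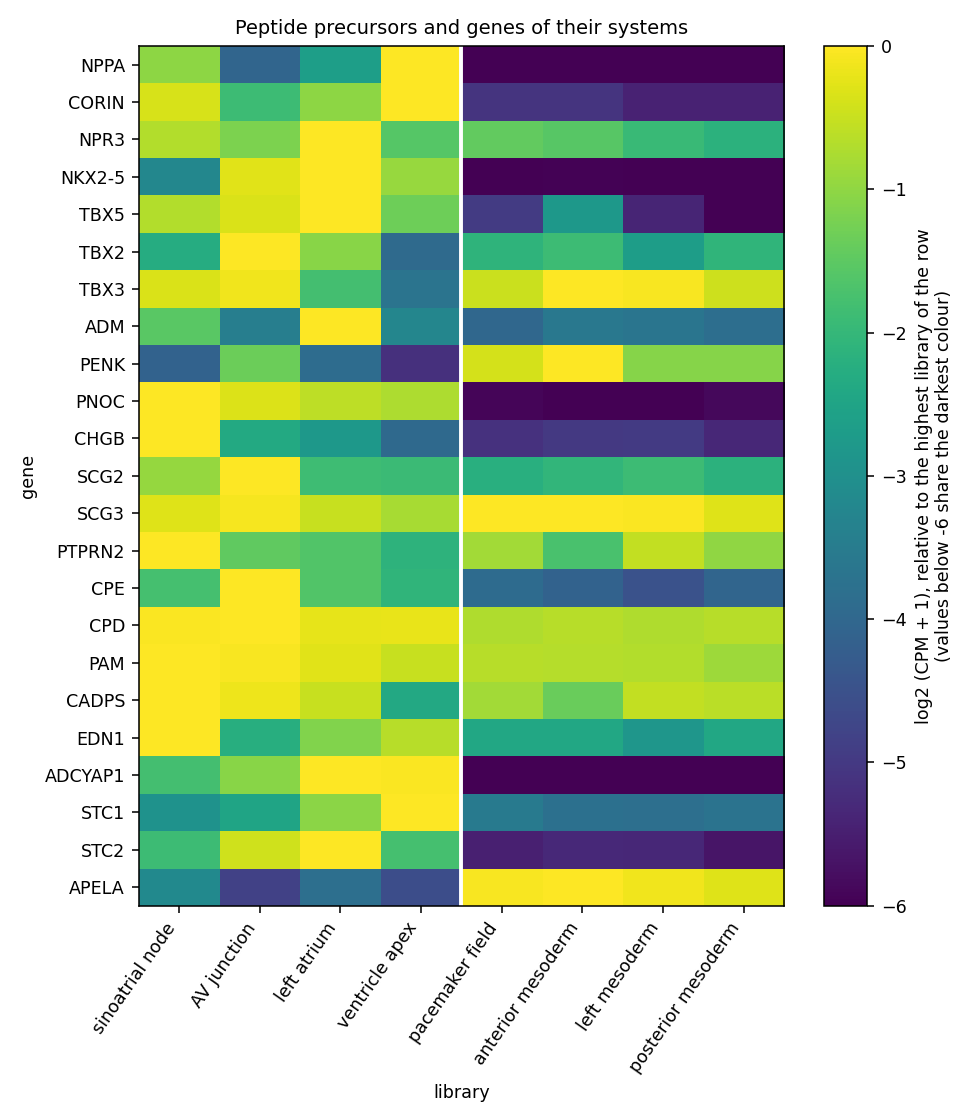
Log2 of CPM + 1 in each library relative to the highest library of the same row, for the members, genes of their systems and other peptide precursors. Colours compare libraries within a row only. NPPA and CORIN share their brightest cell in the ventricle, CHGB and PTPRN2 in the node, while PENK and APELA are brightest in the mesoderm.

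Other secreted peptide precursors gave a wider frame. Of 32 listed, 19 were measured and 5 were expressed in the heart. All 5 were called in at least 1 heart pair, beside 21.3% of all expressed genes, with a median span of 1.89. STC1, a stanniocalcin, shared the ventricular maximum of NPPA, at 21.2 CPM in the ventricle, 9.74 in the atrium, 2.95 in the junction and 1.87 in the node. STC2 was highest in the atrium at 297 CPM and 3.45-fold (3.20 to 3.72) lower in the ventricle. ADCYAP1, the precursor of the peptide PACAP, was at 724 CPM in the left atrium and 711 in the ventricle, 346 in the junction and 209.8 in the node, against 0.772 to 1.79 CPM in the mesoderm. Its row ends at the base where an unnamed gene on the same strand begins, so the assignment of reads is uncertain. EDN1, which encodes the vasoconstrictor endothelin, was highest in the node at 6.61 CPM and 10.9-fold (5.07 to 27.8) above the junction. APELA, a ligand of the apelin receptor, was at 50.8 to 62.0 CPM in the mesoderm and at 1.22 to 6.03 CPM in the heart. It was thus lower in every heart library, while PENK in the junction was near its level in the left and posterior pools. Receptors of such peptides were measured in 3 of 15 cases. AGTR1, the angiotensin receptor, was the 1 expressed in the heart and was called, at 5.10 CPM in the ventricle against 0.718 to 0.892 in the other heart libraries.

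Across all 8 libraries, the genes with a symbol most like each member were sought among 851 that reached 10 CPM and spanned at least 2 log2 units. Likeness was Pearson's r of log2 (CPM + 1), given as a description. For NPPA these were TMEM26 (0.99), CORIN (0.99), BDH1B (0.99), HDAC9 (0.99) and FHL2 (0.99). For CHGB they were SPATA13 (0.98), MOV10 (0.98), COL13A1 (0.98), SEZ6L (0.97) and DOC2B (0.97). For PENK they were COL22A1 (0.97), FRMD1 (0.96), COL24A1 (0.96), ATF3 (0.95) and GAP43 (0.95). For ADM they were GRIFIN (0.96), RERG (0.95), NAV3 (0.93), NPR3 (0.92) and WBSCR17 (0.89). All values share the same 8 libraries. For NPPA and CHGB they also share the step from low levels in the mesoderm to higher levels in the heart. For PENK they share the reverse step outside the junction. Genes of the natriuretic list, CORIN beside NPPA and NPR3 beside ADM, stood among the genes named. With Spearman's rho, 0 of the 5 named genes were kept for NPPA, CHGB and ADM and 1 for PENK, so neither CORIN nor NPR3 was.

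The nearest genes on the chromosome spanned at most 1.22 log2 units over the heart. Next to NPPA, 7965 bases away on the lower side, lies CNP3, a C-type natriuretic peptide gene, with 9 counts in the node, 5 in the ventricle, 2 in the atrium and 0 elsewhere. On the other side CLCN6, a chloride transporter 8705 bases away, ran from 6.04 CPM in the atrium to 15.4 in the ventricle. It was called in 1 heart pair. The unnamed row next above CHGB, 4452 bases away, was even in the heart at 36.7 to 43.4 CPM. IMPAD1, the next gene above PENK at 214150 bases, was at 36.0 to 41.1 CPM in the heart. The SDR16C6 row on its other side had 1 count in all 8 libraries together. AMPD3, an AMP deaminase 36590 bases from ADM, was highest in the atrium as ADM was, at 6.18 CPM, and was called in 2 heart pairs. It was at 3.69 CPM in the ventricle and 2.52 in the junction, and lowest in the node at 2.08, where ADM was next highest.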

How the data were processed

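Polyadenylated RNA of 8 pools was sequenced as paired reads of 36 bases, per the labels' protocols. Bowtie and TopHat stand in the submitters' processing notes without versions. The build, the annotation, the counting program and whether strand was used are not given in the sources used here. Per the file headers, the deposited tables hold CPM of every library and raw read counts of 7. Each count column stood in the table of another library and was matched by its header name. Divided by their sum, these counts equalled the deposited CPM of the same library to within 4.91e-11 CPM. For the posterior mesoderm, counts came from the deposited CPM divided by the value of a single read, which gave whole numbers (tolerance 0.01) for 100% of genes.

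Names were matched to chicken RefSeq (GRCg7b): 7591 by symbol, 438 by gene identifier, 279 by older symbol and 29 by entry name. Older and entry names had to share at least 2 neighbouring genes with the reference, and NPPA (listed as ANF) shared 6. Counts were scaled with TMM (edgeR 4.0.16, R 4.3.3), with factors from 0.848 to 1.18. Levels are CPM. Ratios carry exact Clopper-Pearson 95% intervals, levels exact Poisson intervals, and both cover counting error only, since PCR copies are not independent molecules. There are no replicates and no tests. Members and 17 companion lists (267 genes, 153 found by name) were chosen with earlier results of these data known. Named from each list were up to 4 called genes with the largest heart span or else the 2 highest expressed, besides a fixed set of receptors, processing enzymes and factors, the nearest genes and the 5 most alike. A few further list genes were named after their values were seen. Scaling, pseudocount, minimum level and fold were varied, with DESeq2 1.42.0 for size factors. Values of some other genes are left out here.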

Additional observations from a re-analysis of the deposited data

How the results depend on the processing

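With 1 library per group biological and technical error cannot be estimated, and depth limits the members at low level: ADM below 2 CPM and PENK in the ventricle rest on 2 to 14 counts. No paired analysis was possible because no group has a second library. Of 168 member ratios in the heart under 7 other settings, 160 kept direction and call and 8 gained or lost the call. Part of this was fixed in advance. A call could not be lost with a lower minimum, a 1.5-fold threshold or a pseudocount of 0.5 CPM, nor gained with a pseudocount of 5 CPM. Only total counts and DESeq2 size factors could change a direction, and under these none was reversed. Total counts moved the median gene by up to 0.22 log2 units (DESeq2 size factors by 0.019) and left 1 mesoderm pair called for PENK in place of 2. The cause of the changes below lies in the settings' own construction. With a pseudocount of 5 CPM, ADM was called in 3 heart pairs in place of 5 and PENK in 0 mesoderm pairs, and CHGB lost the call between atrium and ventricle (log2 ratio 0.90). With a minimum of 1 CPM or none, PENK was called in 5 heart pairs in place of 3. With a 1.5-fold threshold PENK was called in 4 mesoderm pairs. Leaving out each heart library in turn removed a whole region and made no new calls, so it is no check on the calls. It left 3 pairs, of which NPPA was called in 3 to 3, CHGB in 2 to 3, ADM in 2 to 3 and PENK in 0 to 2, the 0 without the junction.

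Counts of all genes depended more on these settings. With a pseudocount of 5 CPM the genes called numbered 417 between node and junction, 413 node and atrium, 706 node and ventricle, 352 junction and atrium, 607 junction and ventricle, 361 atrium and ventricle and 1299 in any heart pair. At 1.5-fold these were 1573, 1803, 2585, 1516, 2648, 1982 and 4732. In the mesoderm a pseudocount of 5 CPM gave 25 between pacemaker field and anterior, 31 field and left, 44 field and posterior, 54 anterior and left, 85 anterior and posterior and 86 left and posterior, and 1.5-fold gave 347, 233, 406, 578, 626 and 771. With a minimum of 1 CPM or none, 97 were called between field and anterior, 200 (anterior and left) and 279 (anterior and posterior). Among the 5 genes most like each member, 4 were shared under total counts, and with Spearman's rho 0 for NPPA, CHGB and ADM and 1 for PENK.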
